A study of Mus musculus with 2 samples.

Results

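The 38 genes described here are induced by interferon or encode the antigen processing and presenting proteins of the major histocompatibility complex (MHC), and were chosen by name. A gene was included when the gene name of a probe on the array, control probes left out, equalled a listed symbol, which found all 38 among the 37074 names on the array, with 66 probes. The study asked how loss of connexin 30 (Cx30), a gap junction protein of astrocytes encoded by Gjb6, alters the response of the mouse striatum to MPTP, a toxin that damages dopaminergic neurons. Gene expression was measured on 2 single-colour arrays of 60-mer probes, 1 array for WT mice and 1 for Cx30 KO mice. Both groups were male mice 8 weeks old that received 4 injections of MPTP at 20 mg/kg and 2 h intervals, and the striatum was taken on day 1. Each array holds the pooled RNA of 2 mice. The labels give C57BL/6J as the strain of the WT mice and Cx30-LacZ as that of the Cx30 KO mice, whereas the methods describe the WT controls as offspring of heterozygous pairs that did not inherit the mutation. The labels do not give the MHC haplotype of either group. Saline-treated mice were not analysed here, and all values compare the genotypes after MPTP, not the response to it.

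Interferons are secreted when a cell senses foreign or misplaced nucleic acids, or, for interferon gamma, by activated lymphocytes. They bind receptors that activate transcription factors, STAT2 and IRF9 among them, which switch on a large set of genes through interferon-stimulated response elements and gamma-activated sites in their promoters. The induced proteins block viruses, mark intracellular vacuoles for destruction and load peptides onto MHC class I molecules, whereas class II molecules are restricted mostly to microglia, macrophages and other antigen-presenting cells. In the brain, microglia, endothelial cells and reactive astrocytes all express these genes, and H2-T23, H2-D1, Gbp2, Iigp1 and Psmb8 are widely used as markers of the A1 astrocyte response.

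With 1 array for each genotype there was no replicate and no test, so every difference below compares 2 pools of mice, and genotype, strain and the particular mice cannot be told apart. The levels are processed signals in arbitrary units, given before scaling. A log2 ratio is Cx30 KO minus WT after each array was divided by its 75th percentile, 401.2 for WT and 381.8 for Cx30 KO, which added 0.07 to each log2 ratio. A member was called detected when its probe stood well above background on at least 1 array. A gene met the criteria of the study when its ratio was no more than 0.66 and its Z-score no more than −2, or, in the other direction, when these reached 1.5 and 2. The Z-score was taken against the 1000 probes of closest mean signal. As measures of technical error, single spots of a probe gave a log2 ratio with an SD of 0.06, and different probes of a gene differed with a pooled SD of 0.26. The error printed after a signal is the one that the scanner software gives to that probe. It does not cover the spread between mice. Gjb6 checked the labels, with 1788 ± 179 in WT and 111 ± 11.6 in Cx30 KO mice.

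The levels of tissue markers are given here for comparison with the results below. The 9 striatal neuron markers were all detected and had a median log2 ratio of −0.16. Each of the 6 markers of cortical neurons had the higher signal in the Cx30 KO pool, and their signals summed to 175 in WT and 1391 in Cx30 KO mice, with 2 of them well above background on both arrays. The 7 oligodendrocyte markers had a median of −0.66, and each was lower on its brightest probe. Another detected probe of Mbp, Mag and Cnp gave 0.12, 0.24 and 0.19. In RNA from bulk tissue, fewer cells of a type and less RNA per cell cannot be told apart.

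The short DNA elements through which interferon acts are shown first, because they are what many of the members share. The promoter sequences of RefSeq (GRCm38.p6, from 250 bases before to 50 bases after each start) held 30 of the 38 members and 27025 genes in all. Cd74, H2-Ab1, Iigp1, Mx1, Mx2, Nlrc5, Tap2 and Usp18 were not among them. The core of the interferon-stimulated response element, searched as 2 copies of GAAA with any 2 bases between them, on both strands and with overlapping matches counted, occurred in 16 of the 30 members (53.3%) and in 3.99% of all genes, or 3.44% of all 32851 promoters. The gamma-activated site, searched as TTCNNNGAA, which reads the same on both strands, occurred in 8 members (26.7%) and in 9.55% of all genes. The 6 promoters below carry at least 2 copies of the response element core and belong to an antiviral modifier, an RNA-sensing synthetase, a tethering protein, 2 GTPases and a translation inhibitor. Each is written on the strand of its gene, 5′ to 3′, with every match to either motif in capitals.
Isg15, chr4:156200827-156200946, minus strand: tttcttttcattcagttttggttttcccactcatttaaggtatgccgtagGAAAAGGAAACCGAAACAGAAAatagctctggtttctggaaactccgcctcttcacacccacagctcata
Oas1a, chr5:120907526-120907645, minus strand: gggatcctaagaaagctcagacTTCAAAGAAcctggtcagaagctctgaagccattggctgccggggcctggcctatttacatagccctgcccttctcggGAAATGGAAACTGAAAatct
Bst2, chr8:71537539-71537658, minus strand: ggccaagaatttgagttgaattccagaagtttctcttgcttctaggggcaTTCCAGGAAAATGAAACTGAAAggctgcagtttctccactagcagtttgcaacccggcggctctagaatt
Gbp3, chr3:142559924-142560043, plus strand: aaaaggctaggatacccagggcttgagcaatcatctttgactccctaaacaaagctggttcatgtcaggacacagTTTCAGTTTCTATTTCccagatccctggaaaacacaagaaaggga
Irgm1, chr11:48871421-48871540, minus strand: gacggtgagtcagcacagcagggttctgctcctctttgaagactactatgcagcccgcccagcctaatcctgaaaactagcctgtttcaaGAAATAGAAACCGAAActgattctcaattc
Ifit1, chr19:34640739-34640858, plus strand: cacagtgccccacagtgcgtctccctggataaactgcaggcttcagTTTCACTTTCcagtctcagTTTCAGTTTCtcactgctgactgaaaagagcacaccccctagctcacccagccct

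The copies overlapped head to tail in Isg15, Oas1a, Bst2, Gbp3 and Irgm1 and stood apart in Ifit1. In Bst2 a gamma-activated site ran into the first copy of the core. The next 4 promoters show how sparse the motifs were in other members. B2m and H2-T23, of the class I complex, had a single core each, and Psmb8 and Irf1 had a gamma-activated site and no core.
B2m, chr2:122147492-122147611, plus strand: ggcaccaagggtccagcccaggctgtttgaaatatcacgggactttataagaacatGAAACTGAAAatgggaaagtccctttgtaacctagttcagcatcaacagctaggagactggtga
H2-T23, chr17:36032762-36032881, minus strand: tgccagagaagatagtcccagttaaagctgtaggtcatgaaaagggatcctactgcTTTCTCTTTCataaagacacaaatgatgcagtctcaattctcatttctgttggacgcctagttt
Psmb8, chr17:34198042-34198161, plus strand: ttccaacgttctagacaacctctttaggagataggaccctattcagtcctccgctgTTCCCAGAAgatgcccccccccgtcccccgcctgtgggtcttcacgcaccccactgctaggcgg
Irf1, chr11:53769868-53769987, plus strand: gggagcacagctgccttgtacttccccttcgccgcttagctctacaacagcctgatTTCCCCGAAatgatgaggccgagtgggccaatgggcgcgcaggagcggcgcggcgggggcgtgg

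By role, the core was in 4 of 4 GTPases, 7 of 11 type I interferon-induced effectors, 2 of 2 RNA sensors, 2 of 4 class I genes and 1 of 4 transcription factors with a sequence. It was in none of the 3 antigen processing genes and none of the 2 class II genes. Absence of a match says only that these letters are not in this window.

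Of the 38 members, 35 were detected, and all 35 were well above background on both arrays. Their WT signals ran from 32.0 to 3300, with a median of 238, against a median of 414 for all 22043 detected genes. Mx1, a GTPase that blocks influenza viruses, was not well above background with 4.80 in WT and 4.27 in Cx30 KO mice. Rsad2, which encodes the antiviral enzyme viperin, had 19.95 and 15.0, and H2-Aa, the class II alpha chain, had 4.14 and 3.62, both also not well above background. No direction is given for these 3 genes.

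The signal was lower in the Cx30 KO pool for 30 of the 35 detected members and higher for 5, whereas 45.4% of all detected genes were lower. The median log2 ratio of the members was −0.50, against 0.03 for all detected genes. 16 members (45.7%) had a ratio no higher than 0.66, which 6.22% of all detected genes had, and 9 members met the criteria for lower genes, which 3.38% of all genes did. No member reached a ratio of 1.5, which 7.24% of all genes did, and so none met the criteria for higher genes (2.37% of all genes). Against the SD of 0.26 between probes of a gene, 24 members lay further below 0 than this SD, 9 within it and 2 further above. Over all detected genes, the 10th and 25th percentiles of the log2 ratio were −0.42 and −0.17, and the 75th and 90th were 0.21 and 0.47. This SD is pooled over dim and bright probes. The dim members Mx2 and Nlrc5 lay beyond it with Z-scores of only −0.54 and −0.89. The plot of signals on each array shows the WT value to the right of the Cx30 KO value for most genes, dim and bright.

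**Figure D1:**
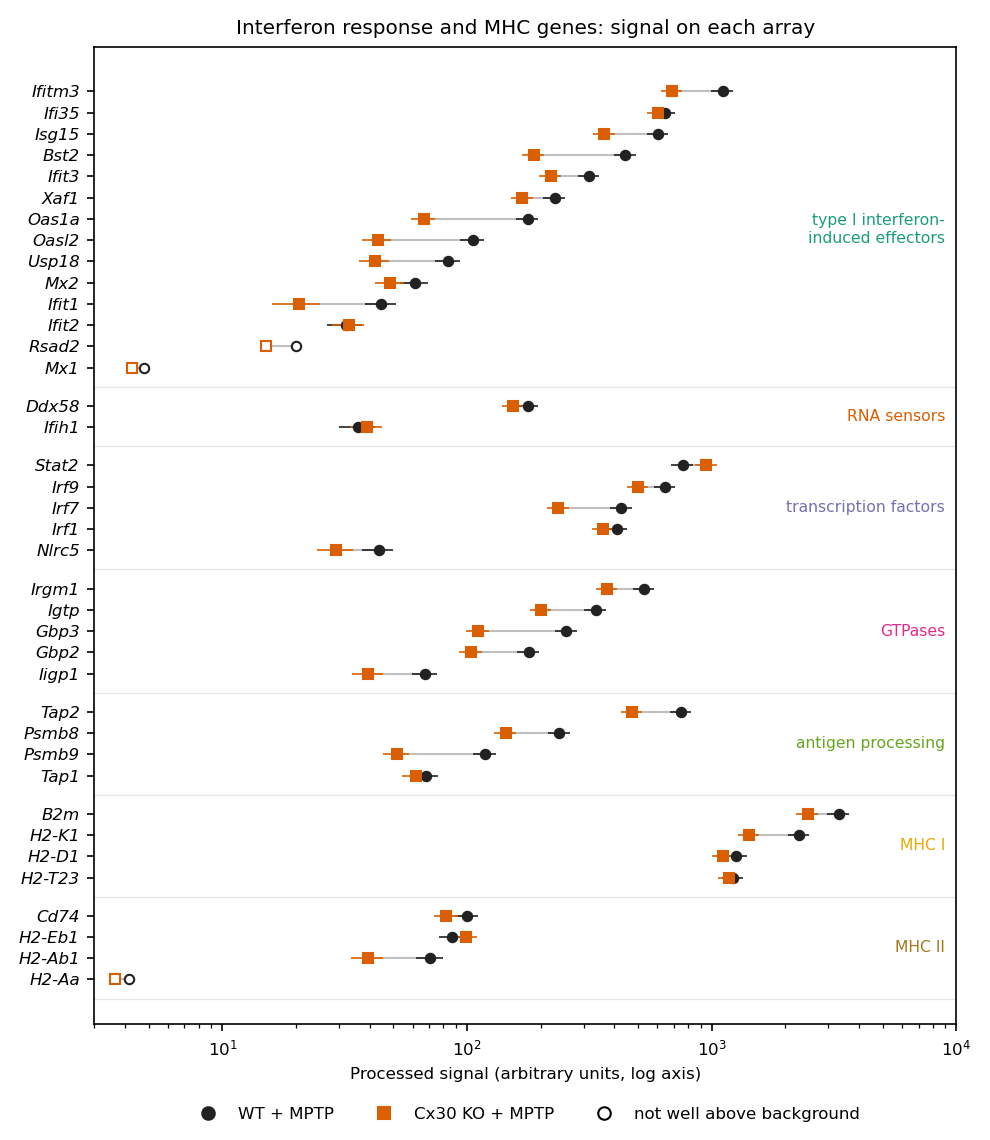
Processed signal of each member on the WT and Cx30 KO arrays, on a log axis in arbitrary units, grouped by role. Circles are WT, squares Cx30 KO, bars the scanner software's error of a probe, and open symbols probes not well above background. After scaling, the WT value is the higher for 30 of the 35 detected genes.

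The effectors induced by type I interferon were the largest group and the one with the most members past the criteria. Of the 12 detected, 5 (41.7%) met the criteria for lower genes, against 3.38% of all detected genes. Of these 12 effectors 11 were lower, with a median log2 ratio of −0.64. Oas1a and Oasl2, of the oligoadenylate synthetase family that senses double-stranded RNA, stood lowest. Oas1a, which makes the messenger that activates RNase L, had 177 ± 18.1 in WT and 66.5 ± 7.52 in Cx30 KO mice, a log2 ratio of −1.34 (Z-score = −3.26, ratio = 0.395). Oasl2, a related antiviral gene, had 105 ± 11.5 and 43.1 ± 5.93, a log2 ratio of −1.22 (Z-score = −2.60, ratio = 0.430). These were the lowest ratios of all members. Of the detected genes of this family that are not members, Oasl1 had a log2 ratio of −0.87, Oas1c −0.24 and Oas1b 0.15, and these were looked up after the values were seen. Bst2, which encodes tetherin, a membrane protein that holds budding virions at the cell surface, had 444 ± 44.7 and 187 ± 19.2, a log2 ratio of −1.17. Its Z-score of −3.36 was the lowest of the members.

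Usp18 and Isg15 act on the same modification, in which the ubiquitin-like protein ISG15 is attached to other proteins and USP18 takes it off again. Usp18 had 83.7 ± 9.69 in WT and 42.1 ± 6.03 in Cx30 KO mice, a log2 ratio of −0.92 (Z-score = −2.01). Isg15 had 602 ± 60.3 and 364 ± 36.6, a log2 ratio of −0.65, and its Z-score of −1.92 missed the limit. Ifitm3, which stops viruses from fusing with endosomes, had 1108 ± 111 in WT and 688 ± 68.9 in Cx30 KO mice. Its log2 ratio of −0.62 met the criteria (Z-score = −2.16, ratio = 0.652).

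The Ifit genes, whose products bind viral RNA and block its translation, differed among themselves. Ifit1 had 44.7 ± 6.37 in WT and 20.5 ± 4.53 in Cx30 KO mice, a log2 ratio of −1.05 that missed the criteria because the Z-score of this dim probe was −1.53. Ifit3 had 316 ± 31.9 and 219 ± 22.3, a log2 ratio of −0.45. Ifit2 was the only effector that was higher, by 0.12 on the log2 scale, with 32.0 ± 5.19 and 33.0 ± 4.89, which is within the SD between probes.

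The remaining effectors were closer to 0. Xaf1, a promoter of apoptosis, had 228 ± 23.3 in WT and 168 ± 17.3 in Cx30 KO mice, a log2 ratio of −0.37. Mx2 had 61.1 ± 7.92 and 48.6 ± 6.59, a log2 ratio of −0.26. Ifi35, a leucine zipper protein, had 642 ± 64.4 and 602 ± 60.4, a log2 ratio of −0.02, and its other probe gave −0.15, so that its levels differed by less than the SD between probes.

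**Figure D2:**
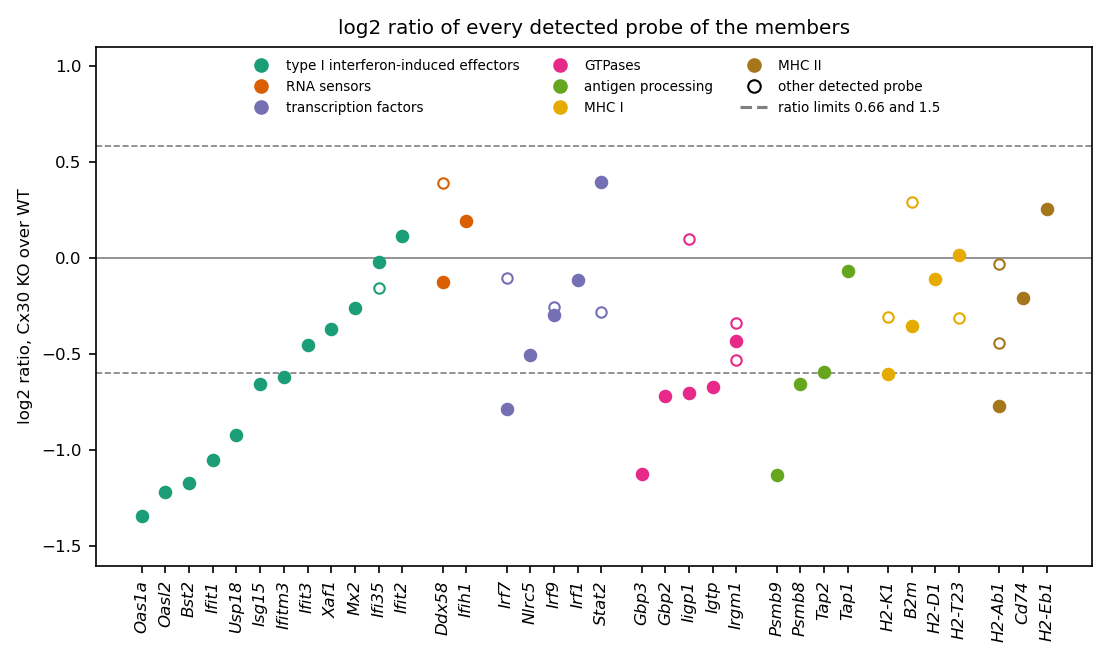
log2 ratio of Cx30 KO over WT for each detected member, ordered by role and by ratio. Filled circles are the brightest probe of a gene, open circles its other detected probes, and dashed lines the ratios 0.66 and 1.5. Several effectors, the GTPase Gbp3 and the antigen processing gene Psmb9 reach far below the lower dashed line. No filled circle lies above the upper one.

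The RNA sensors, which detect viral RNA in the cytoplasm and trigger interferon production, lay on both sides of 0. Ddx58, which encodes RIG-I, had 177 ± 18.2 in WT and 154 ± 15.9 in Cx30 KO mice, a log2 ratio of −0.12, but its second detected probe, with 105 and 131, gave 0.39. Ifih1, which encodes MDA5, had 35.9 ± 6.08 and 39.1 ± 5.85, a log2 ratio of 0.19. The median of both genes was 0.03. It turned to between −0.02 and −0.01 under 4 of the other scalings tried.

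Among the 5 transcription factors the lowest was Irf7, the regulator that amplifies the type I interferon response. Irf7 had 427 ± 43.0 in WT and 236 ± 24.1 in Cx30 KO mice, a log2 ratio of −0.78 (Z-score = −2.21, ratio = 0.581). Its second probe, near background with 23.02 and 20.4, gave −0.10. Nlrc5, which switches on the class I genes, had 43.5 ± 6.28 and 29.3 ± 4.97, a log2 ratio of −0.50. Irf9 gave −0.29, with 645 ± 64.7 in WT and 501 ± 50.2 in Cx30 KO mice, and its second probe gave −0.25. Irf9 lies on chromosome 14, 1.51 Mb from Gjb6, and a flanking segment carried with the targeted allele cannot be told apart from the loss of Cx30 there.

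The other transcription factors were not lower beyond the SD between probes. Irf1, the main factor downstream of interferon gamma, had 410 ± 41.2 in WT and 360 ± 36.2 in Cx30 KO mice, a log2 ratio of −0.11. Stat2, a partner of IRF9 in the type I response, was the member with the highest ratio, 759 ± 76.1 and 952 ± 95.3, a log2 ratio of 0.40. Its second probe was dim, with 32.7 and 25.6, and gave the opposite direction, −0.28.

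All 5 GTPases were lower, and 4 of them had a ratio no higher than 0.66, with a median log2 ratio of −0.70. These proteins, of the guanylate-binding and immunity-related families, attack the vacuoles in which parasites and bacteria hide. Gbp3 had 255 ± 26.0 in WT and 111 ± 12 in Cx30 KO mice, a log2 ratio of −1.12, and was the GTPase that met the criteria (Z-score = −3.07, ratio = 0.459). Gbp2 had 178 ± 18.4 and 103 ± 11.1, a log2 ratio of −0.71, with a Z-score of −1.96. Igtp, a regulator of the immunity-related GTPases, had 335 ± 33.9 and 201 ± 20.6, a log2 ratio of −0.67, with a Z-score of −1.84. Gbp2 and Igtp were thus just outside the limit for the Z-score.

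Irgm1, which also regulates autophagy, was measured by 3 detected probes, which agree on the direction. Its brightest probe had 528 ± 53.0 in WT and 373 ± 37.5 in Cx30 KO mice, a log2 ratio of −0.43, and the other 2 gave −0.34 and −0.53. Iigp1, which is loaded onto parasite vacuoles, had 67.6 ± 8.08 and 39.5 ± 5.59, a log2 ratio of −0.70, but a dimmer probe, with 38.3 and 39.0, gave 0.10.

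The 4 antigen processing genes lie side by side in the MHC region and were all lower, with a median log2 ratio of −0.62. Psmb9 and Psmb8 encode subunits of the immunoproteasome, which cuts proteins into peptides for class I molecules, and TAP1 and TAP2 together form the transporter that moves these peptides into the endoplasmic reticulum. Psmb9 had 118 ± 12.6 in WT and 51.6 ± 6.40 in Cx30 KO mice, a log2 ratio of −1.13 (Z-score = −2.65, ratio = 0.458). Psmb8 had 238 ± 24.2 and 144 ± 14.8, a log2 ratio of −0.66, with a Z-score of −1.86. Tap2 had 747 ± 74.9 and 472 ± 47.4, a log2 ratio of −0.59, and its ratio of 0.663 fell just outside the limit. Tap1 had 67.9 ± 8.08 and 61.7 ± 7.28, a log2 ratio of −0.07, and so differed by less than the SD between probes.

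Psmb9 and Tap1 start head to head and share a promoter, so the bases between their starts are printed here. Between the starts lie 225 bases, and the promoter windows of both genes share 275 bases. The stretch holds neither the response element core nor the gamma-activated site, and 1 GC box (GGGCGG on either strand, present in 35.7% of all promoters), which is in capitals. The motif was chosen after the values were seen.
Psmb9 and Tap1, chr17:34187331-34187555, plus strand: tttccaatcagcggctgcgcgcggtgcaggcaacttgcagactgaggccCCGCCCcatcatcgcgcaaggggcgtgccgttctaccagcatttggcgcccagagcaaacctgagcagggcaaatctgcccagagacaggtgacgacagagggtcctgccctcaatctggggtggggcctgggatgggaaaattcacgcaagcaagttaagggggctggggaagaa

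The log2 ratios of the genes on either side of this stretch were −1.13 and −0.07, each from a single detected probe. The second Tap1 probe was not well above background, with 11.1 in WT and 4.79 in Cx30 KO mice, and gives no direction.

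The class I genes present peptides at the surface of nearly every cell. Of the 4, 3 were lower, with a median log2 ratio of −0.23. H2-K1, a classical heavy chain, had 2275 ± 228 in WT and 1425 ± 143 in Cx30 KO mice, a log2 ratio of −0.60 (Z-score = −2.18, ratio = 0.658), and its dimmer probe, with 787 and 606, gave −0.31. It met the criteria by a narrow margin. H2-D1, the other classical chain, had 1262 ± 126 and 1114 ± 111, a log2 ratio of −0.11. B2m, the light chain of all class I molecules, had 3300 ± 330 and 2463 ± 246, a log2 ratio of −0.35, and a probe near background, with 16.9 and 19.8, gave 0.29. H2-T23, which presents leader peptides to natural killer cells, had 1220 ± 122 and 1176 ± 118, a log2 ratio of 0.02, which turned to −0.03 with scaling by the median. Its second probe, with 82.4 and 63.2, gave −0.31.

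Class I probes were compared with each other because the genes of this family are alike and can share signal. Detected probes of a chosen list of class I genes were compared without gaps. The closest to the bright H2-K1 and H2-D1 probes had 53.7% identity over 41 bases and 60% over 30 bases. Probes were not compared with transcripts, so whether these 2 probes share signal with other genes was not tested. The H2-T23 probe had 88.9% identity over 54 bases with a probe named H2-L, whose log2 ratio was −0.13. That H2-L probe lies at chr17:35403191-35403250 in mm9, close to the H2-D1 probe at chr17:35403886-35403945 on the same strand. Whether the H2-L and H2-D1 probes read the same gene was not tested. The first 30 bases of the stretch that the H2-T23 and H2-L probes share differ at 3 positions, in capitals.
H2-T23, used probe: ATcatcCttggagctgtggtggcttttgtg
H2-L: GCcatcAttggagctgtggtggcttttgtg

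The dimmer H2-K1 probe, at −0.31, had 72.2% identity over 54 bases with the H2-T23 probe, at 0.02. Of the 30 bases shown, 26 are the same.
H2-K1, dimmer probe: atAGtcACtggagctgtggtggcttttgtg
H2-T23, used probe: atCAtcCTtggagctgtggtggcttttgtg

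The ratios of the class II genes ran in both directions, with a median of −0.21 over the 3 detected genes. Cd74, the invariant chain that escorts class II molecules, had 99.9 ± 11.0 in WT and 82.4 ± 9.24 in Cx30 KO mice, a log2 ratio of −0.21. H2-Eb1, a class II beta chain, had 87.1 ± 10.1 and 99.03 ± 10.9, a log2 ratio of 0.26. H2-Ab1, the beta chain of the other class II molecule, had 70.8 ± 8.66 and 39.5 ± 6.01 on its brightest probe, a log2 ratio of −0.77, with a Z-score of −1.52.

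The value of H2-Ab1 depended on the probe, and 2 of its probes overlap and differ in sequence. A second probe that overlaps the brightest had 53.8 ± 7.38 in WT and 50.3 ± 6.77 in Cx30 KO mice, a log2 ratio of −0.03, and the third had 34.1 and 23.9, a log2 ratio of −0.44. The overlapping probes lie on the plus strand at chr17:34406296-34406355 and chr17:34406305-34406363 in mm9, and the stretch of 51 bases that both cover has 1 difference, T51C, counted from 1 at the 5′ end of the probe that starts first. The brighter probe has 60 bases and spans 59 on the genome. Part of that stretch is shown, with the differing base in capitals.
H2-Ab1, probe that starts first, log2 ratio −0.03: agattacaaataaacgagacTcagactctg
H2-Ab1, brightest probe, log2 ratio −0.77: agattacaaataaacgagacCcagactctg

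The ratios of these 2 probes differed by 0.74 on the log2 scale. Whether the WT and Cx30 KO mice carry different bases here was not tested, so the direction of H2-Ab1 is uncertain. The counts of lower members above include its brightest probe. Without H2-Ab1, 29 of 34 detected members were lower, 15 had a ratio no higher than 0.66 and the median was −0.48. H2-Ea-ps, a class II alpha chain gene that is not expressed in the MHC haplotype of C57BL/6 mice, was not well above background on either array, with 4.30 in WT and 3.79 in Cx30 KO mice.

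The other genes of the MHC region were examined, since the labels give different strains. Between 34111920 and 37618439 on chromosome 17 (mm9), 154 detected genes had a median log2 ratio of −0.02, against 0.03 for all genes outside. Of these, 8 were lower and 4 higher by the criteria, a share of 7.79% (95% exact binomial interval 4.09% to 13.2%, which covers counting error only), against 5.74% outside. Without the 9 members of the region, the share was 6.90% (3.36% to 12.3%). The order turned with a Z-score over all probes, 1.95% in the region and 4.37% outside, and with ratio limits of 2 and 0.5, 2.60% and 3.49%. The plot along the region shows Psmb9, Psmb8, Tap2, H2-Ab1 and H2-K1 at its start near or below the ratio limit, and H2-D1 and H2-T23 further on close to 0.

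**Figure D3:**
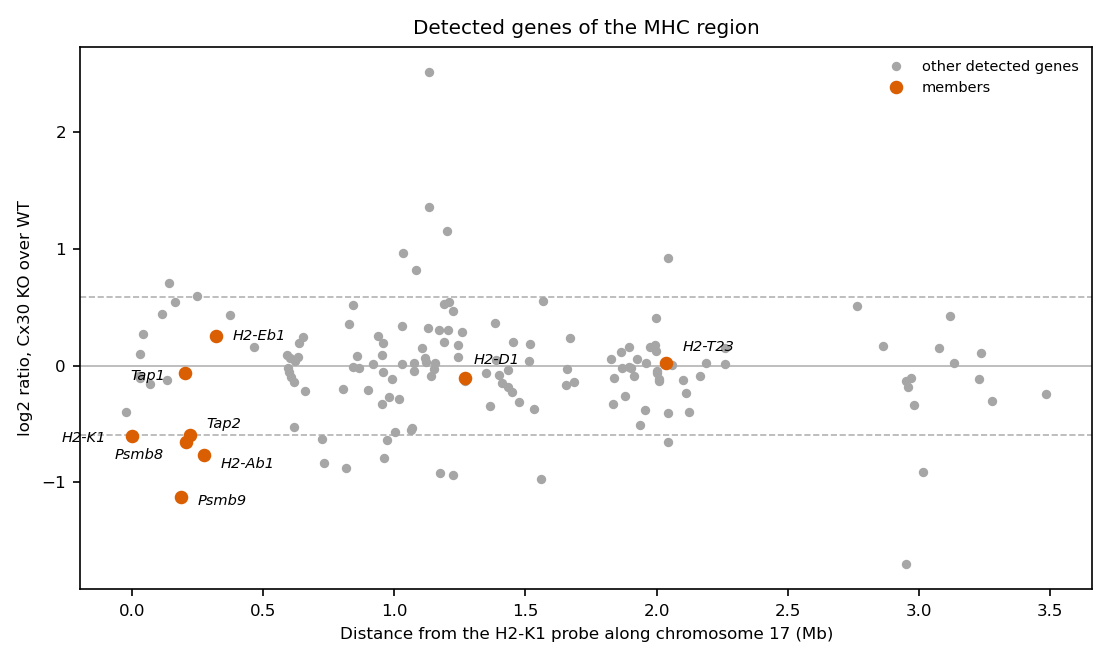
log2 ratio of Cx30 KO over WT for the 154 detected genes of the MHC region against the distance in Mb from the H2-K1 probe. Members are in orange, other genes in grey, and dashed lines are the ratios 0.66 and 1.5. The 5 members at or near the lower line all lie within the first 0.5 Mb, beside other genes above 0.

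Several members rest on few probes. Of the 35 detected members, 24 had a single detected probe and 11 had several, and in 6 of these 11 all probes gave the same direction. The others were Ddx58, Stat2, Iigp1, B2m and H2-T23. Counted by probe, 40 of the 48 detected probes were lower. The lower values were not restricted to dim genes, since the 24 members with a WT signal of at least 100 had a median log2 ratio of −0.60 and the 11 dimmer members had −0.26.

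A list of 24 genes, mainly interferon ligands, receptors and signalling genes, had a median log2 ratio near 0. It also holds regulators of class II genes, Ciita, Rfx5, Rfxap and Rfxank, with log2 ratios of 0.22, −0.20, 0.04 and 0.28. The inhibitor Socs1, with −0.21, is on it too. Of the 24 genes 18 were detected, 9 lower and 9 higher, with a median of −0.0002 and none past the criteria. The split is that of the mixed list, not of the signalling genes alone. Single genes lay beyond the SD between probes in both directions. The members Irf7, Irf9 and Stat2, which also transmit the signal, are not among the 24. The interferon genes Ifnb1, Ifng, Ifna2, Ifna4, Ifnk and Ifne were not well above background on either array, and Ifna1 was so in the Cx30 KO pool only, with 21.1 ± 4.81 in WT and 23.2 ± 4.45 in Cx30 KO mice. The receptor chains Ifnar1 and Ifnar2, which bind type I interferon, had log2 ratios of −0.06 and 0.01. Ifngr1 and Ifngr2, which bind interferon gamma, had −0.29 and 0.08. Ciita, the switch for class II genes, had 66.1 ± 8.16 and 73.1 ± 8.46, a log2 ratio of 0.22.

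Wider lists held 124 other interferon and MHC genes. Of the 96 detected, 59 were lower and 37 higher, with a median of −0.08. A ratio no higher than 0.66 was found for 10 (10.4%), against 6.22% of all detected genes. A ratio of at least 1.5 was found for 3, against 7.24% of all detected genes. The 27 other interferon-induced genes had a median of −0.20, the 8 other GTPases −0.27, the 24 other antigen processing and class I genes −0.16, the 10 genes that sense nucleic acids −0.03 and the 9 other class II genes 0.23. The members and the wider lists were both drawn up with results of these data known, and the difference between them was not tested. Of the wider lists, 4 genes (4.17%) met the criteria for lower genes and 1 (1.04%) for higher genes, near or below the shares of all detected genes, 3.38% and 2.37%. Tmem173, which encodes STING, the adaptor for cytosolic DNA, had 367 ± 37.0 in WT and 155 ± 16.1 in Cx30 KO mice, a log2 ratio of −1.17. The interferon-induced genes Tgtp2, Rtp4 and Ifi27 had −0.85, −0.71 and −0.65. H2-DMa, which helps load class II molecules, had 378 ± 38.1 and 589 ± 59.0, a log2 ratio of 0.71. The cumulative plot shows the members to the left of the wider lists, and the wider lists to the left of all other genes over the middle of the range.

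**Figure D4:**
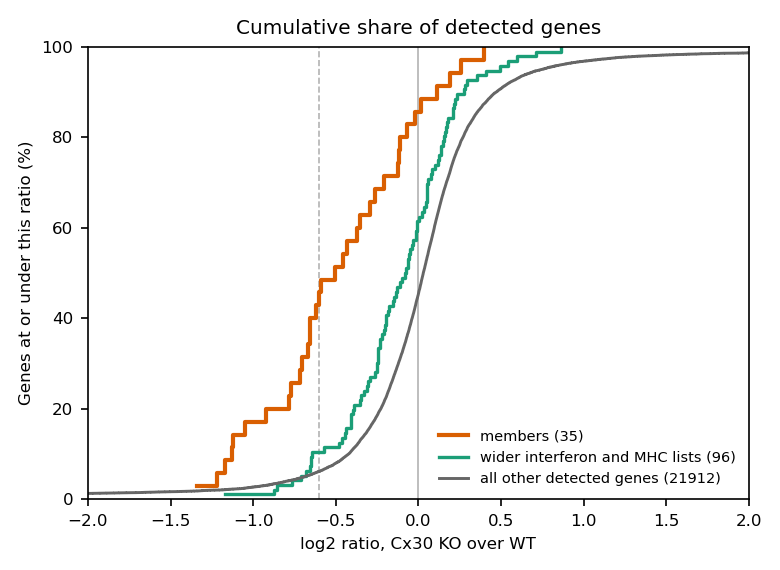
Cumulative share in percent of detected genes at or under each log2 ratio of Cx30 KO over WT, for the 35 members, the 96 genes of the wider interferon and MHC lists and all other detected genes. The solid vertical line is 0 and the dashed line the ratio 0.66. At 0 the curves stand near 85.7%, 61.5% and 45.4%.

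The response element core was next set against the log2 ratios. The 15 detected members with the core had a median log2 ratio of −0.62 and the 13 without it −0.29, and 12 of the 15 and 11 of the 13 were lower. Among all other detected genes, the 437 with the core had a median of −0.0005, and 8.70% had a ratio no higher than 0.66. The 11989 without it had a median of 0.02 and 5.94%. By the criteria, 4 of the 15 members with the core and 4 of the 13 without it were lower, and none was higher. Among the other genes with the core, 5.26% were lower and 3.20% higher by the criteria. Without the core, these shares were 3.56% and 2.33%. These are descriptions of genes on the same 2 arrays, with no test.

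Markers of cells that can express these genes are given beside them. Of 8 microglia markers, all detected, 6 were lower and 4 met the criteria, with a median log2 ratio of −0.52, and their summed signal was 148167 in WT and 144166 in Cx30 KO mice. The 4 were Aif1, Cx3cr1, Tmem119 and P2ry12, with log2 ratios of −0.93, −0.67, −0.90 and −1.69. Itgam and Siglech, which make up most of the sum, each had 0.13 on the brightest probe. The 3 detected probes of Siglech disagreed, from −0.48 to 0.42, while the 2 of Itgam gave 0.11 and 0.13. Csf1r, lower on its brightest probe, gave 0.10 on another. Of 7 border macrophage markers, all detected and 4 of them on both arrays, 6 were lower, with summed signals of 409 and 222. The 8 endothelial markers had a median of −0.17 and the 7 astrocyte markers −0.07. In each of these 2 lists 1 marker met the criteria for lower genes, Flt1 with −0.93 and Aqp4 with −0.95. Their detected probes disagreed, from −0.93 to 0.52 for Flt1 and from −4.24 to 0.02 for Aqp4. Of 7 dendritic cell markers 4 were detected, and Cd209a, Xcr1 and Clec9a were not. Of 8 lymphocyte markers 2 were detected, with a median of 0.16, and Cd3d, Cd8a, Cd2, Cd79a and Nkg7 were among those that were not. Of 7 neutrophil and monocyte markers 4 were detected, with a median of 0.40, and Ccr2, Retnlg and Mmp8 were not. Of 6 choroid plexus markers 4 were detected and 3 of these were lower, with log2 ratios of −1.27 for Ttr, which met the criteria, −0.58 for Folr1 and −0.02 for Clic6, while Otx2, well above background in the Cx30 KO pool only, had 16.3 in WT and 30.2 in Cx30 KO mice, and Kcnj13 and Aqp1 were not detected. The part of these cells, of the oligodendrocyte markers and of the cortical markers in the result was not tested.

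GTPases, effectors and antigen processing genes had the lowest medians of the roles under each processing alternative that gives a ratio, from −0.75 to −0.40, and the medians of the other roles lay between −0.34 and 0.16. Normexp background correction lowered the number of members with a ratio no higher than 0.66 from 16 to 6, and the share of all genes from 6.22% to 2.62%. With the Z-score over all probes, 2 members met the criteria in place of 9, and 2.07% of all genes in place of 3.38%. These were Oasl2 and Oas1a, which met them under every alternative.

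**Figure D5:**
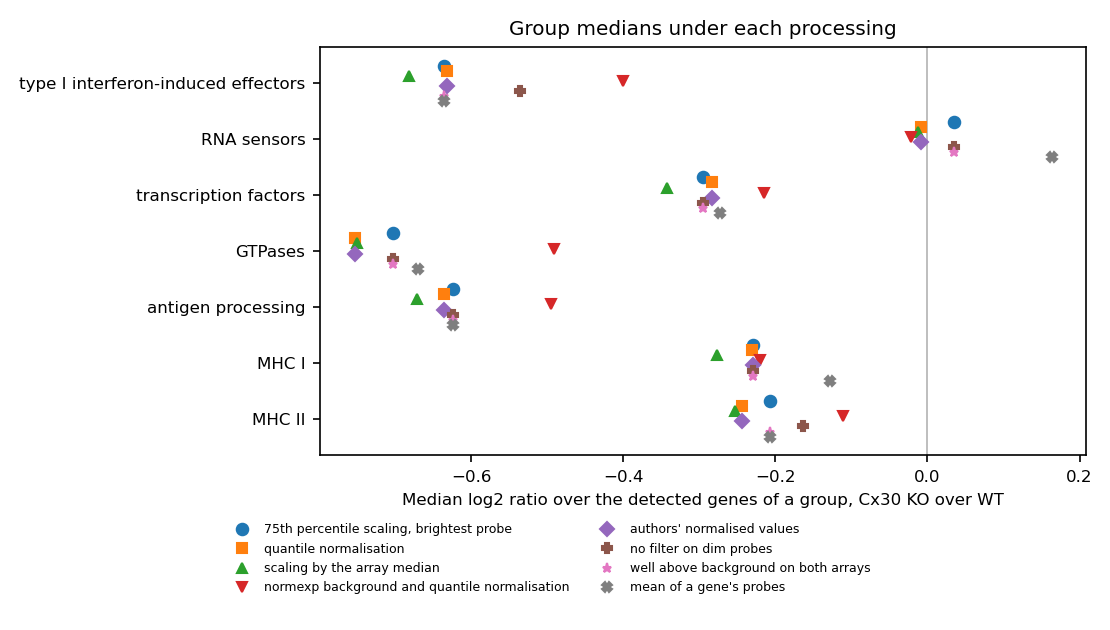
Median log2 ratio of Cx30 KO over WT over the detected genes of each role (no filter on dim probes adds the other members), 1 symbol for each way of scaling, filtering or combining probes. The medians of the GTPases, effectors and antigen processing genes stay between −0.8 and −0.4, and those of the RNA sensors fall on both sides of 0.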

How the data were processed

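RNA of striatum was measured on 2 single-colour Agilent arrays, 1 pool of 2 male mice for each genotype, each with 62976 spots and 56605 probes apart from controls. The authors extracted the spots with Agilent Feature Extraction, version 10.7.1.1 per the file headers and 9.5.1.1 per the labels, with probe positions in mm9. The deposited processed signals are linear intensities, background-subtracted and detrended within each array and not normalised between arrays. The authors' normalised value table was used as an alternative.

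Outlier spots were left out, repeat spots were combined into a mean log2 intensity of the deposited signal, and the 75th percentile of each array was subtracted. A probe was well above background when the share of its spots marked so was at least 0.5, as it was for 56.6% (WT) and 58.2% (Cx30 KO) of the probes, and no probe was saturated. The lowest such signals were 19.8 and 17.4. Each gene was represented by its brightest detected probe. Both arrays come from the same slide and scan. The number of arrays limits the precision, and no test between groups was made. The Z-score is the log2 ratio minus the mean, divided by the SD, over the 1000 probes nearest in mean signal, because the methods name no set of probes. The calculation was tested on simulated data.

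The members and lists were chosen with earlier results of these data known. All 38 members are named, and of the wider lists the genes that met the criteria, up to 5 in each direction, with the receptors, interferons, Ciita and H2-Ea-ps by role. A further gene of that rule is not reported here. Of the symbols on the lists, 7 were not on the array. Promoter sequences are from RefSeq (GRCm38.p6). Alternatives were the array median for scaling, quantile normalisation with or without a preceding normexp correction at offset 50 (limma 3.58.1, R 4.3.3), the authors' values, no filter on dim probes, detection required on both arrays, probes of a gene averaged, single other probes, a Z-score over all or the 200 nearest probes, and ratio limits of 2 and 0.5. Python 3.11.15, numpy 2.4.6, pandas 2.3.3, scipy 1.17.1 and matplotlib 3.10.9 were used.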

Additional observations from a re-analysis of the deposited data

How the results depend on the processing

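With 1 array for each genotype no replicate could be left out, and a value was taken to move when it changed by more than 0.26 on the log2 scale, the SD between probes of a gene, or by more than 1.5 times for a count. No paired analysis was possible because each genotype has 1 array. Of 402 alternative values over 54 results, 365 kept their direction and size, 24 moved and 13 reversed. The median of all genes stayed between −0.07 and 0.04 under every scaling. Of the detected members, 29 stayed below 0 and 4 above 0 under every way of scaling, filtering or averaging, and Ddx58 and H2-T23 had values on both sides. Single other probes reversed 3 more, given below. The median of the members ran from −0.55 to −0.33. The number of members that met the criteria for lower genes was 2 with a Z-score over all probes and 5 with ratio limits of 2 and 0.5, against 9. The number with a ratio no higher than the limit was 6 under normexp and 6 with the limit of 0.5, against 16. The share of MHC region genes past the criteria was 1.95% with a Z-score over all probes and 2.60% with the other ratio limits, both below the 4.37% and 3.49% outside the region. The median of the RNA sensors reversed to −0.0083 under quantile normalisation and with the authors' values, to −0.013 with scaling by the median and to −0.022 under normexp. The median of the mixed list of 24 ligands, receptors, signalling genes and class II regulators reversed to 0.041 when probes of a gene were averaged. Among single genes, Ddx58 reversed to 0.13 with the mean of its probes and to 0.39 on its other probe, Stat2 to −0.28, Iigp1 to 0.10 and B2m to 0.29 on their other probes, and H2-T23 to −0.029 with scaling by the median, −0.15 with the mean of its probes and −0.31 on its other probe. The cause was not tested. Signal over background limits Ifit1, Ifit2, Ifih1 and Nlrc5, which lie nearest the lowest detected signals.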

Other observations

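Of the 145 other detected genes of the MHC region, 6 were lower and 4 higher by the criteria of the study, 6.90% against 5.74% of the genes outside the region. The complement genes C4b and C4a, which differ by few bases and can share signal, had log2 ratios of −0.83 and −0.88, and the heat shock gene Hspa1a had −0.64. Aif1, a microglia marker, had −0.93, Mog, a myelin gene, −0.91, and Rnf39 −1.71. The higher genes were Apom with 1.36, Ltb, a lymphotoxin gene, with 1.16, A930015D03Rik with 0.93 and H2-DMa with 0.71. These genes were named after their values were seen, and each value compares 2 pools with no replicate.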
